A study of Xenopus laevis with 4 samples.

Results

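Transcripts for the proteins of the mitochondrial ribosome were examined in early gastrula embryos of *Xenopus laevis* after knockdown of the histone acetyltransferase Gcn5 (Kat2a). Members were all rows of the gene table whose symbol, without a final .L or .S for the homeolog, begins with *mrpl* or *mrps* followed by a number. They were 85 of 45098 gene models and covered 63 symbols, 51 models of the large subunit (*mrpl*) and 34 of the small subunit (*mrps*). At least 1 read was found for 75 of them. The 43 whose mean over both groups reached 10 normalized reads were tested, 28 of the large and 15 of the small subunit. A gene that is high in only 1 group can pass this minimum through that group. Of the members named below, *mrpl4.L*, *mrps2.L*, *mrps12.L* and *mrps24.S* passed with a control mean under 10. *mrpl51.L*, *mrpl18.L*, *mrpl40.S* and *mrps31-like.L* passed with a Gcn5-AS mean under 10. Members just under the minimum were *mrps12.S* with a mean of 9.62 and *mrpl46.L* with 9.03, and those just above it were *mrps31-like.L* with 10.2 and *mrpl4.L* with 10.2.

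Gcn5-AS embryos had received, as 1-cell embryos, 0.8 ng of a DNA oligonucleotide antisense to *gcn5* mRNA, and control embryos had received water according to their titles and knockdown label. The treatment text of the control samples repeats the oligonucleotide injection, and the groups here follow the titles. The labels used here name no strain or genotype for either group, and each group had 2 samples of 10 whole embryos collected at stage 10.5. The oligonucleotide is shown because it is the agent that separates the groups, with capitals for the bases that have no modified linkage on either side.

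Gcn5-AS [BJ220]: tcaaacACAAGccgggtt

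Mitochondria carry their own ribosomes, which translate the few mRNAs of the mitochondrial genome, all of them for subunits of the respiratory chain and the ATP synthase. The RNA of these ribosomes is encoded in the mitochondrial genome, whereas their proteins are encoded in the nucleus, made in the cytosol and imported. About as many of these proteins have a homologue in the bacterial ribosome as are particular to mitochondria, and the large subunit joins amino acids while the small subunit reads the mRNA. The egg of *Xenopus* holds a large maternal stock of mitochondria, which is handed out to the cells of the embryo during cleavage. *X. laevis* is allotetraploid, so many genes have an L and an S copy.

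Reads assigned to genes lay between 2351039 and 4093025 per library, and the 10 most abundant models of a library took 36.02% to 50.2% of them. The libraries of a group are called X and Y, where X has the larger size factor, because the deposited means do not tell which replicate each one is, and values of a group are given with X before Y. The labelled stage was checked against markers, of which 22 of 23 models for the early gastrula passed the minimum, while the 12 models for differentiated tissues had a summed normalized count of 5.36 or less in every library. Of the 22 gastrula marker models 7 were called higher and 1 lower in Gcn5-AS embryos, with a median log2 fold change of 0.59. Over all models 4.46% were called higher and 4.17% lower. The higher ones were both homeologs of *gsc*, *eomes* and *mix1*, and *sox17b.1.S*. The lower one was *krt12.S*, at a log2 fold change of −4.79. The part of these marker differences in the members' results was not tested. In whole embryos fewer cells of a type and less RNA per cell cannot be told apart. Transcripts of the targeted *kat2a.L* had normalized counts of 52.9 and 62.6 in the Gcn5-AS libraries, against 50.4 and 104 in the control libraries, and *kat2a.S* had 13.7 and 35.5 against 27.9 and 45.7. Neither was called, with log2 fold changes of −0.26 (95% interval −1.11 to 0.58) and −0.67 (−1.70 to 0.35).

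To ask what share of the reads assigned to genes these transcripts took, their reads were summed. The sums do not cover the whole mitoribosome. Of 74 *mrpl* and *mrps* symbols in the RefSeq annotation, 15 had no row by that name. Another 20685 models of the table carry only an identifier, and whether members are among them was not tested. Members together took 2238 and 1877 reads in the Gcn5-AS libraries, against 2820 and 1205 in the control libraries. These were 0.0608% (Wilson 95% interval 0.0583% to 0.0634%) and 0.0520% (0.0497% to 0.0544%) of the reads in Gcn5-AS embryos, against 0.0689% (0.0664% to 0.0715%) and 0.0513% (0.0484% to 0.0542%) in controls. The Gcn5-AS shares lay between those of both controls. Such intervals cover counting error only, since reads without molecular identifiers are not independent molecules. In normalized counts, which are reads divided by the size factor of the library, the members summed to 1538 and 1753 in Gcn5-AS embryos and 1512 and 1620 in controls, and these ranges overlapped.

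**Figure D1:**
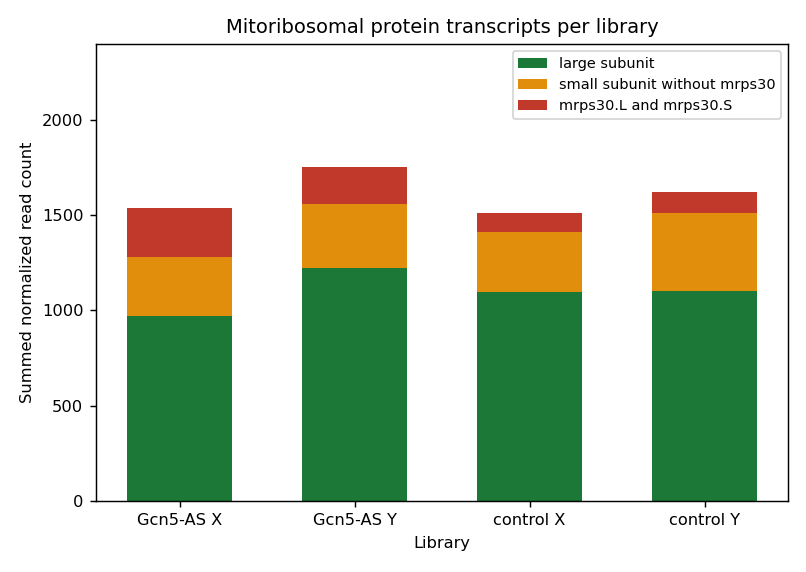
Stacked bars of the summed normalized read count of all members in each library, starting at 0, with the large subunit in green, the small subunit without *mrps30* in orange and both *mrps30* homeologs in red. Bar heights overlap between groups, at 1538 and 1753 in Gcn5-AS and 1512 and 1620 in control libraries, while the red part is larger in both Gcn5-AS libraries.

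Large-subunit members summed to 969 and 1223 normalized counts in the Gcn5-AS libraries, against 1097 and 1101 in the control libraries. Small-subunit members summed to 568 and 531, against 414 and 519. By symbol, the large-subunit sums overlapped and the small-subunit sums did not. As shares of all reads the small-subunit sums overlapped as well, at 0.0225% and 0.0157% in Gcn5-AS embryos and 0.0189% and 0.0164% in controls. Much of the small-subunit sum came from *mrps30*, which alone gave 44.7% and 36.4% of the small-subunit sum in Gcn5-AS embryos, against 23.9% and 20.98% in controls. Without *mrps30* the small-subunit sums were 314 and 337 in Gcn5-AS embryos and 315 and 410 in controls. By human structure *mrps30* counts to the large subunit and *mrps36* to neither. The large-subunit sums were then 1224 and 1416 in Gcn5-AS embryos, against 1197 and 1210 in controls, and did not overlap. The small-subunit sums were 313.3 and 336 against 313.1 and 410, and overlapped. Shares of all reads were not taken for this grouping. The ratio of large to small subunit was 1.71 and 2.30 in Gcn5-AS embryos, against 2.65 and 2.12 in controls, and without *mrps30* it was 3.09 and 3.63 against 3.48 and 2.69. Both of these ratios overlapped between groups. Grouped by human structure, the ratio was 3.91 and 4.21 in Gcn5-AS embryos, against 3.82 and 2.95 in controls, and did not overlap. The lower Gcn5-AS library and the higher control were close there. Such sums follow the few most abundant members and also the lengths of their transcripts, by which these counts were not divided.

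Gene by gene, few members differed between the groups. By limma-voom at a false discovery rate of 0.1, adjusted by Benjamini-Hochberg over all 11272 models tested, 1 of 43 members was higher in Gcn5-AS embryos, *mrps30.L*, and none was lower. This was 2.33% of the members, where over all models 4.46% were called higher and 4.17% lower. With scaling by total reads no member was called, and 19 models were called higher and 171 lower, in place of 503 and 470. At an unadjusted p under 0.05 there were 5 members or 11.6%, of which 1 was higher and 4 lower, where 22.0% of all models reached this p. Limma on log2(normalized count + 1) called *mrps30.L* and no other member, and none lower.

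The libraries of each member were also compared without a model. In 8 members both Gcn5-AS libraries lay above both controls and in 10 both lay below, whereas in 25 the groups overlapped. The shares of 18.6% above and 23.3% below were under those over all models, 26.3% and 25.0%. The median 95% interval of a member's log2 fold change reached 1.06 to either side, with narrower intervals for members with many reads. For all models the median was 0.93, and their median count was 37.3 against 23.8 for the members tested.

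The transcript with the clearest difference was *mrps30*. Its protein carries a small-subunit name, but sits in the large subunit in structures of the human mitoribosome and has no bacterial homologue. Normalized counts of *mrps30.L* were 215 and 162 in the Gcn5-AS libraries, against 82.0 and 87.4 in the control libraries. Both Gcn5-AS libraries thus lay well above both controls, and each group was narrower than the gap between them. The transcript rose 2.21-fold (log2 fold change 1.14, SE 0.36, 95% interval 0.39 to 1.89, adjusted p = 0.074 by limma-voom). The second homeolog *mrps30.S* had 39.2 and 31.8 in Gcn5-AS embryos, against 17.2 and 21.5 in controls. It showed the same order of libraries, with a log2 fold change of 0.93 (−0.04 to 1.91), and was not called (adjusted p = 0.25 by limma-voom). With the reads of both homeologs summed, the log2 fold change was 1.10 and *mrps30* was called (adjusted p = 0.087 by limma-voom). The call of *mrps30.L* was lost when any of 3 libraries was left out, with a log2 fold change of 0.94 without Gcn5-AS X, 1.08 without control X and 1.18 without control Y (adjusted p of 0.303, 0.660 and 0.295 by limma-voom, in that order). It was also lost with scaling by total reads (0.98, adjusted p = 0.49) and with no count filter (1.15, adjusted p = 0.13), so the direction held in each of these settings and the call did not.

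**Figure D2:**
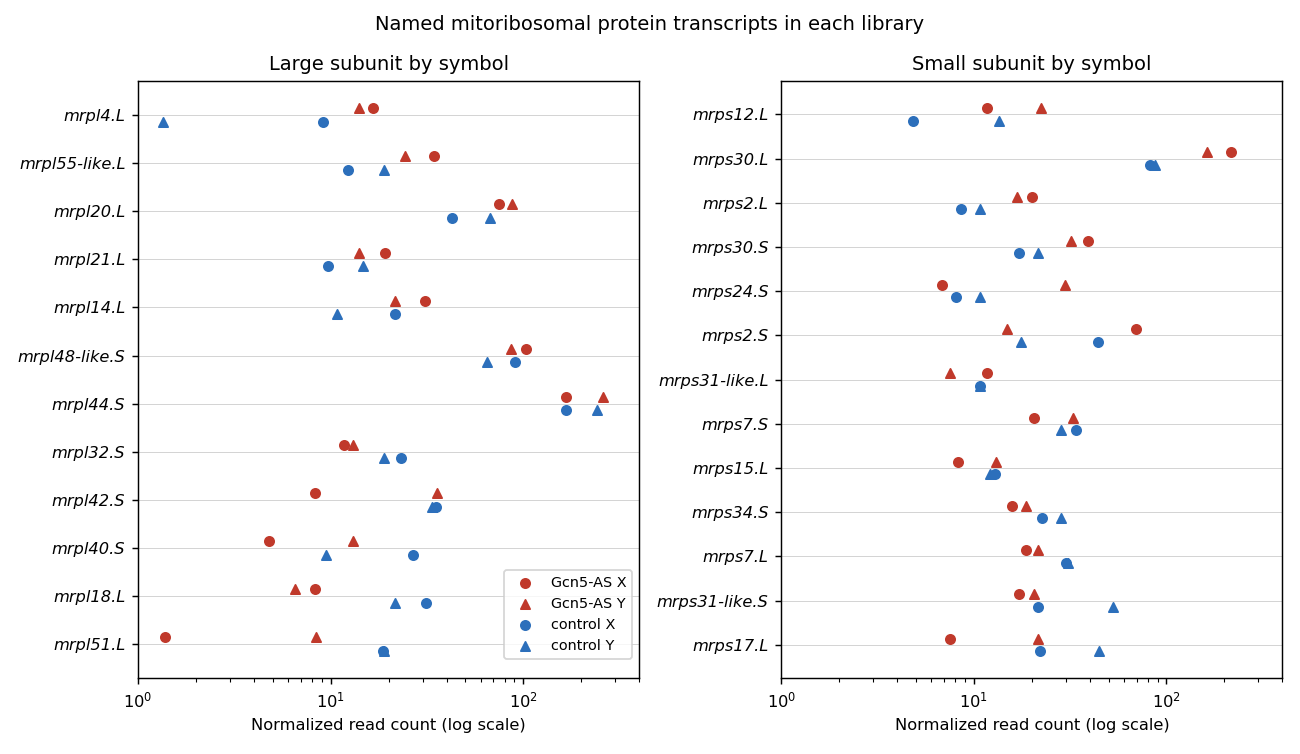
Normalized read counts on a log axis of the members chosen by rule, with the large subunit on the left, the small subunit on the right, and rows ordered by fitted log2 fold change. Red points are the Gcn5-AS and blue points the control libraries, circles X and triangles Y. For *mrps30.L* the red points at 215 and 162 stand apart from the blue ones at 82.0 and 87.4, and both *mrps30.S* points in red lie above those in blue.

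Of the 28 large-subunit members tested, 17 had a log2 fold change above 0 and 11 below, with a median of 0.10, which was −0.051 with scaling by total reads, and quartiles of −0.52 and 0.35. None was called by limma-voom or by limma on log2 counts, and 3 had an unadjusted p under 0.05 by limma-voom, all of them lower. Of all models 22.0% reached this p, 1334 higher and 1147 lower. Members with a bacterial homologue had a median of 0.11 (8 of 14 higher) and those without one 0.10 (9 of 14 higher). Over all models the median was 0.02, with 51.0% higher, and it was −0.15 with scaling by total reads.

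The largest positive value was that of *mrpl4.L*, whose bacterial homologue lines the exit tunnel of the nascent chain. It passed the minimum through Gcn5-AS embryos, with a group mean of 15.2 against 5.23 in controls. Its normalized counts were 16.5 and 14.01 in Gcn5-AS embryos, against 9.11 and 1.34 in controls, where control Y gave 1 read. The groups did not overlap. The log2 fold change was 1.37 with an interval of −0.46 to 3.21. For *mrpl55-like.L*, a protein particular to mitochondria, the counts were 34.4 and 24.3 in Gcn5-AS embryos, against 12.3 and 18.8 in controls. The groups did not overlap, and the log2 fold change was 1.05 (−0.004 to 2.11, adjusted p = 0.23 by limma-voom). Transcripts of *mrpl20.L*, whose bacterial homologue is needed to assemble the large subunit, had 74.9 and 86.9 against 42.9 and 67.2 in controls, a log2 fold change of 0.63 (−0.18 to 1.44). Among the other members with a bacterial homologue, *mrpl14.L* had 30.9 and 21.5 in Gcn5-AS embryos, against 21.4 and 10.8 in controls. There the lower Gcn5-AS library and the higher control were nearly equal. *mrpl21.L* had 19.2 and 14.01 against 9.65 and 14.8, and overlapped.

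The negative values reached further. Counts of *mrpl51.L*, a protein particular to mitochondria, were 1.37 and 8.41 in the Gcn5-AS libraries (2 and 9 reads), against 18.8 and 18.8 in the control libraries (35 and 14 reads). Both Gcn5-AS libraries lay below both controls, but they also differed several-fold from each other. The log2 fold change of −2.51 (−4.51 to −0.50) was the lowest of all members tested and was not called (adjusted p = 0.13 by limma-voom). *mrpl51.L* and *mrpl18.L* passed the minimum through the controls, with Gcn5-AS means of 4.89 and 7.39. Counts of *mrpl18.L*, whose bacterial homologue binds the small RNA of the large subunit, were 8.24 and 6.54, against 31.1 and 21.5 in controls. These groups were well apart, with a log2 fold change of −1.80 (−3.18 to −0.43) and an adjusted p of 0.12 by limma-voom. It was not called. For *mrpl42.S*, also without a bacterial homologue, 1 library decided the value, since the counts were 8.24 and 35.5 in the Gcn5-AS libraries, against 35.4 and 33.6 in controls. The log2 fold change of −1.13 became −2.03 without Gcn5-AS Y, where limma-voom called it (adjusted p = 0.063), and 0.03 without Gcn5-AS X. *mrpl40.S* had 4.81 and 13.1 in Gcn5-AS embryos, against 26.8 and 9.41 in controls, and overlapped. *mrpl32.S*, whose protein is matured by a mitochondrial protease in yeast and mouse, had 11.7 and 13.1 against 23.1 and 18.8, with a log2 fold change of −0.80 (−1.94 to 0.34).

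The large-subunit members with the highest read counts showed little difference. *mrpl44.S*, whose protein holds a fold of the ribonuclease III family, had 166 and 261 normalized counts in the Gcn5-AS libraries, against 166 and 241 in the control libraries. Both groups spanned nearly the same range, and the log2 fold change was 0.06 (−0.69 to 0.82). *mrpl48-like.S* had 104 and 85.9 against 90.1 and 64.6, a log2 fold change of 0.28 (−0.50 to 1.06). Other members with well-known bacterial homologues, picked here after their values were seen, were also not called. *mrpl27.L* had a log2 fold change of 0.01, *mrpl22.L* of −0.12, *mrpl10.S* of 0.29, *mrpl11.S* of −0.51 and *mrpl3.S* of −0.71. For *mrpl45.L*, whose human protein anchors the ribosome at the inner membrane, it was 0.42 (−0.58 to 1.42).

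**Figure D3:**
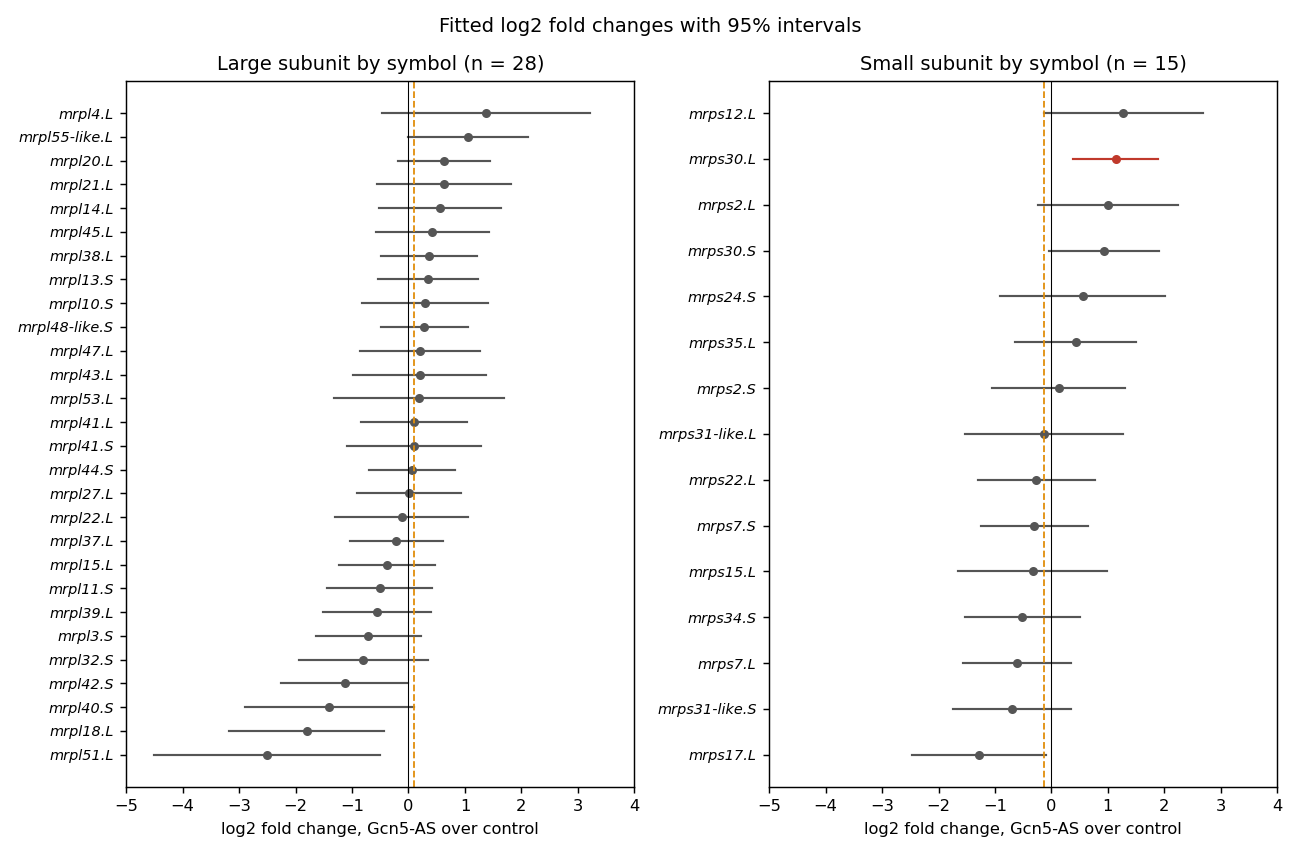
Fitted log2 fold change of each tested member, Gcn5-AS over control, with its 95% interval, for the large subunit (n = 28) on the left and the small subunit (n = 15) on the right, where the dashed line marks the median of the subunit at 0.10 and −0.13 (−0.051 and −0.41 with scaling by total reads). Only *mrps30.L*, in red, was called, and the interval of most other members spans 0.

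Of the 15 small-subunit members tested, 7 were above and 8 below 0, with a median of −0.13 and quartiles of −0.42 and 0.74. With scaling by total reads the median was −0.41, where that of all models was −0.15. *mrps30.L* was the single call, and without both *mrps30* homeologs the 13 others had a median of −0.27. Members with a bacterial homologue had a median of −0.09 (4 of 8 higher) and those without one −0.13 (3 of 7 higher).

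Highest by value was *mrps12.L*, whose bacterial homologue lies at the decoding site. It had 11.7 and 22.4 normalized counts in the Gcn5-AS libraries, against 4.82 and 13.4 in the control libraries. The groups overlapped, and the log2 fold change of 1.28 (−0.13 to 2.68) was 0.18 without control X and 0.37 with the reads of both homeologs summed. Transcripts of *mrps2.L*, a homologue of a bacterial small-subunit protein, had 19.9 and 16.8 against 8.58 and 10.8 in controls. Here the groups were apart, with a log2 fold change of 1.00 (−0.23 to 2.23, adjusted p = 0.33 by limma-voom). Its homeolog *mrps2.S* did not show this order, with 69.4 and 14.9 in Gcn5-AS embryos and 44.0 and 17.5 in controls. In both groups library X was far above Y for *mrps2.S*. *mrps24.S*, whose bacterial homologue lies where the mRNA enters, had 6.87 and 29.9 against 8.04 and 10.8.

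At the lower end, *mrps17.L*, with a bacterial homologue, had 7.56 and 21.5 in Gcn5-AS embryos, against 22.0 and 44.4 in controls. The higher Gcn5-AS library and the lower control were close, and the log2 fold change was −1.28 (−2.47 to −0.09, adjusted p = 0.19 by limma-voom). *mrps31-like.S*, without a bacterial homologue, had 17.2 and 20.5 against 21.4 and 52.4, a log2 fold change of −0.70. *mrps34.S* had 15.8 and 18.7 in Gcn5-AS embryos, against 22.5 and 28.2 in controls. Its groups did not overlap, with a log2 fold change of −0.52 (−1.54 to 0.51). *mrps7.L*, whose bacterial homologue organizes the head of the small subunit, had 18.5 and 21.5 against 30.02 and 30.9, while *mrps7.S* had 20.6 and 32.7 against 33.8 and 28.2. The groups were apart for *mrps7.L*, at a log2 fold change of −0.61 (−1.57 to 0.36), and overlapped for *mrps7.S*. *mrps31-like.L* and *mrps15.L* lay near 0, at −0.13 and −0.33, with counts of 7.47 to 13.1 in Gcn5-AS embryos and 10.7 to 12.9 in controls.

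Set side by side, the medians of the large and small subunit differed by 0.23 on the log2 scale, 0.10 against −0.13. Set against the median over all models, which was 0.02, they stood at 0.08 and −0.15. Per library, the median log2 deviation of large-subunit members from their own mean was −0.11 and 0.16 in the Gcn5-AS libraries, against 0.07 and −0.04 in the control libraries. For the small subunit it was −0.28 and 0.10, against −0.22 and 0.10. In both subunits the Gcn5-AS libraries lay on opposite sides of 0, and in the small subunit control X lay near Gcn5-AS X and control Y near Gcn5-AS Y. Without Gcn5-AS X the medians were 0.26 for the large and 0.05 for the small subunit, and without Gcn5-AS Y they were −0.22 and −0.32. With the subunits taken from the human structure, where *mrps30* counts to the large one and *mrps36* to neither, the medians were 0.14 over 30 and −0.27 over 13 members. Neither list was tested as a whole.

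**Figure D4:**
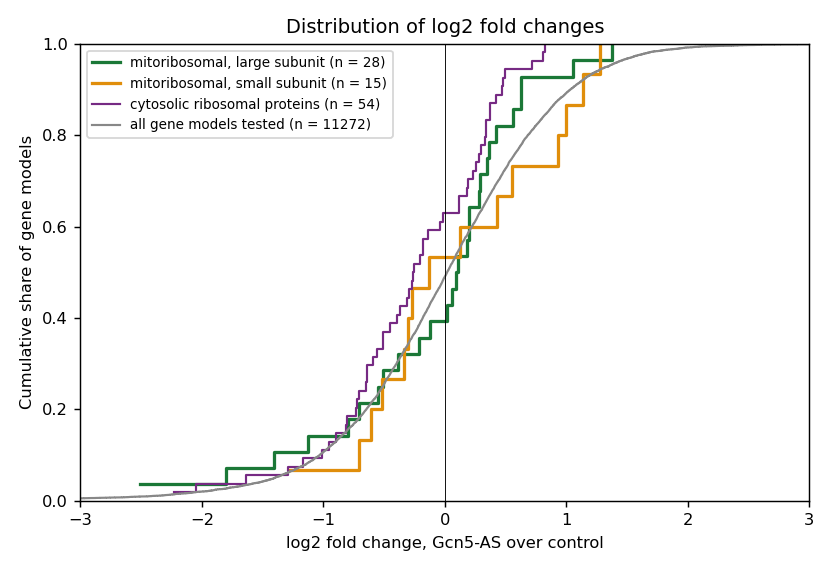
Cumulative share of gene models by log2 fold change, Gcn5-AS over control, for large-subunit members (n = 28), small-subunit members (n = 15), cytosolic ribosomal proteins (n = 54) and all models tested (n = 11272). Medians of the large and small subunit are 0.10 and −0.13, that of the cytosolic proteins is −0.26 and that of all models 0.02. With scaling by total reads, not drawn, those of the large subunit, the small subunit and all models are −0.051, −0.41 and −0.15.

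The cytosolic ribosomal proteins, which translate the bulk of cellular mRNA, were described beside the mitochondrial ones. Of 54 models tested 20 were above and 34 below 0, with a median of −0.26 against 0.09 for the 43 mitoribosomal members. The member median did not keep its sign. It was −0.089 with scaling by total reads, −0.13 with no count filter, −0.25 without Gcn5-AS Y and −0.073 without control X. In the same order, the medians of all models were −0.15, −0.06, 0.04 and −0.01. The cytosolic median is not given for these settings. Of the 54 cytosolic models limma-voom called none higher and 1 lower, with 5 at an unadjusted p under 0.05. Over all models 4.46% were called higher and 4.17% lower, and 22.0% reached this p. The difference between both lists was not tested.

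Both homeologs of a member were seldom measured together. Of 22 symbols with an L and an S row, both copies passed the minimum in 5, 1 copy in 10 and neither in 7. Where only 1 copy passed it was L in 4 and S in 6. Among these, the L copy had no read in any library in *mrpl44*, *mrpl42* and *mrps24*, and the S copy had none in *mrpl39* and *mrps15*. How reads of near-identical copies were assigned was not tested. In all 5 pairs with both copies tested, their log2 fold changes had the same sign. The share of such pairs over all genes was not taken. The shared sign did not hold when single libraries were left out. *mrps2.S* was then at −1.05 without Gcn5-AS X and −0.36 without control Y, *mrps7.S* at 0.050 without Gcn5-AS X, and *mrps31-like.L* at 0.11 without Gcn5-AS Y. For *mrpl41* the fitted values were only 0.10 for L and 0.09 for S. Its L counts were 30.9 and 42.03 in Gcn5-AS embryos, against 43.4 and 21.5 in controls. Its S counts were 15.1 and 14.9 against 10.2 and 29.6, a lower mean in Gcn5-AS embryos despite the positive value. Control X thus lay above both Gcn5-AS libraries for L and below both for S, and control Y the reverse.

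The balance of L and S reads was compared between groups over 2286 pairs by limma on log2 ratios. None of the 5 member pairs was called at a false discovery rate of 0.1, where 0.569% of all pairs were called. None had an unadjusted p under 0.05, and the share of all pairs with such a p was not taken. For *mrps30* the L copy held 84.6% and 83.6% of the pair's reads in Gcn5-AS embryos, against 82.7% and 80.2% in controls. This share was nearly constant over the 4 libraries, and the log2 ratio differed by 0.27 (−0.59 to 1.14). For *mrps2* it was 22.3% and 52.9% against 16.3% and 38.1%, where X and Y differed more than the groups, with a difference of 0.69 (−1.10 to 2.48). For *mrps31-like* the difference was 0.63 (−0.99 to 2.24), for *mrpl41* 0.43 (−1.29 to 2.16), and for *mrps7* −0.35 (−1.47 to 0.77). Each of these intervals spans 0, and they are too wide to show that the balance was equal.

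The 42 members below the minimum could not be compared singly. Of these 10 had no read, namely *mrpl17.L*, *mrpl36.S*, *mrpl39.S*, *mrpl40.1*, *mrpl42.L*, *mrpl44.L*, *mrps10.L*, *mrps15.S*, *mrps23.S* and *mrps24.L*. The other 32 gave 173 and 201 reads in the Gcn5-AS libraries, against 297 and 143 in the control libraries. Their group mean was higher in Gcn5-AS embryos in 12 and lower in 20. The same split over all models below the minimum was not taken. With no count filter the median log2 fold change of all models was −0.06, against 0.02 with the filter. Singled out after their values were seen, *mrps11.S* had 8 and 19 reads in Gcn5-AS embryos, against 4 and 0 in controls, and *mrpl46.S* had 8 and 8 against 1 and 1. Of their homeologs, *mrps11.L* had 10 and 18 reads against 6 and 5, and *mrpl46.L* had 9 and 5 against 17 and 12. So few reads, in libraries of unequal depth, were not tested.

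Other genes of the mitochondrial translation system were described from lists with few measured models, and those named are examples picked after their values were seen. Mitoribosome proteins that do not carry an *mrp* symbol had 4 models tested, 2 above and 2 below 0, with none called by either test. Where 22.0% of all models had an unadjusted p under 0.05 by limma-voom, 2 of these 4 did, both lower. These were *dap3.L*, a GTP-binding protein of the small subunit, with 26.8 and 22.4 against 39.7 and 71.3 in controls, and *chchd1.L*, also of the small subunit, with 13.7 and 31.8 against 41.3 and 45.7. Their log2 fold changes were −1.03 (−1.95 to −0.10) and −1.09 (−2.06 to −0.11). Higher by value in Gcn5-AS embryos was *ptcd3.L*, a small-subunit protein with RNA-binding repeats, with 28.2 and 19.6 against 12.3 and 5.38.

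Of 4 mitochondrial translation factor models tested, 2 were above and 2 below 0, with a median of 0.05. None was called by either test or had an unadjusted p under 0.05. The elongation factor *gfm1.L* had 9.62 and 19.6 normalized counts in Gcn5-AS embryos, against 22.0 and 29.6 in controls, and its groups did not overlap. *tsfm.L*, the exchange factor of the other elongation factor, had 43.3 and 29.0 against 29.5 and 29.6. Of 10 models for mitoribosome assembly and rRNA modification, 6 were above and 4 below 0 (median 0.09). None was called by either test. Where 22.0% of all models had an unadjusted p under 0.05 by limma-voom, 1 of these 10 did. This was *fastkd2.L*, an RNA-binding protein of mitochondrial RNA granules, with 8.24 and 11.2 against 34.3 and 25.6, a log2 fold change of −1.67 (−2.89 to −0.46) and an adjusted p of 0.10 by limma-voom, just beyond the threshold. *malsu1.L*, an assembly factor of the large subunit, had 72.1 and 62.6 in Gcn5-AS embryos, against 44.5 and 43.0 in controls, with a log2 fold change of 0.61 (−0.20 to 1.43).

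Of 3 models for mitochondrial transcription and mRNA handling 1 was above and 2 below 0, with none called by either test or at an unadjusted p under 0.05. *lrpprc.L*, whose protein stabilizes mitochondrial mRNA, had 59.8 and 49.5 against 87.4 and 88.8. Its log2 fold change was −0.68 (−1.47 to 0.10). Among transcripts for mitochondrial proteins apart from translation, 5 models for import and metabolism had a median of −0.22. None of these was called by either test or had an unadjusted p under 0.05. The amount of mitochondria itself was not measured. For citrate synthase, *cs.L* had 113 and 117 in Gcn5-AS embryos and 118 and 110 in controls, a log2 fold change of 0.01 (−0.73 to 0.75), while *cs.S* had 156 and 120.5 against 189.8 and 164, a log2 fold change of −0.37 (−1.10 to 0.37). The groups overlapped for *cs.L* and did not for *cs.S*. Of the import receptor and channel models, *tomm20.L* stood at −1.13 (−2.46 to 0.19), *tomm40.L* at −0.22 and *tomm40.S* at 0.20.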

How the data were processed

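Ribosomal RNA was depleted by the authors, and reads of 75 nucleotides were mapped with STAR to *X. laevis* genome JGI 9.1, allowing 1 mismatch. No source used here gives the read counter, the annotation or the strand setting, so reads of overlapping genes or near-identical homeologs may not be told apart. The deposited signal columns were made by the authors with DESeq, as group means of read counts divided by size factors. The deposited fold changes and p-values of the authors' own comparison were not used. Groups came from sample titles. The labels do not say that samples came from separate batches of embryos, so p-values measure the spread between samples, which may be technical.

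Each mean was solved for the whole reads of its 2 libraries within a relative tolerance of 3e-14, which gave 1 solution for all 21410 Gcn5-AS and 21721 control means above 0. Size factors were 1.46 (X) and 1.07 (Y) for Gcn5-AS embryos and 1.87 (X) and 0.744 (Y) for controls. Models whose mean reached 10 were fitted by limma-voom with a two-sided test (limma 3.58.1 under R 4.3.3). The L to S balance was fitted by limma on log2 ratios. The methods were also run on simulated data. For the L to S balance the simulated shifts were far larger than the differences found here. That run thus does not show which small differences the fit could detect. Python 3.11.15, numpy 2.4.6 and pandas 2.3.3 were used.

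Named members are every called member, the 5 largest increases and decreases and the 2 highest counts in each subunit, and 3 homeolog pairs with the largest difference, and other genes named are examples chosen after their values were seen. Members, lists and tests were chosen with earlier results of these data known. Of the 63 symbols 59 matched the RefSeq annotation of assembly 10.1, from which no coordinate was taken. Alternatives were scaling, count filters, another test, summed homeologs, subunits by structure and leaving out single libraries, where the lone library of a group was assumed to vary like the other group.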

Additional observations from a re-analysis of the deposited data

How the results depend on the processing

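The count of 1 member called higher was 0 with scaling by total reads and 0 with no count filter, and 0 to 1 when single libraries were left out. Members called lower were 0 to 1 when single libraries were left out and 0 in the other settings, while calls over all models then ranged from 6 to 1421 higher and from 76 to 836 lower. By human structure the large subunit had 1 call and the small subunit 0. Scaling by total reads moved the median log2 fold change of all models to −0.15. The large-subunit median was then −0.051 and the small-subunit median −0.41, so relative to all models they stood at 0.10 and −0.26. At a minimum of 50 the small-subunit median was 1.14, since *mrps30.L* was its only model left. Without single libraries the median ranged from −0.22 to 0.26 in the large and from −0.32 to 0.05 in the small subunit. Recomputed size factors, log2 counts and summed homeologs kept the counts of calls. No member pair was called for its L to S balance in any setting, and the adjusted p of *mrps30.L* ranged from 0.015 to 0.66 over 9 alternatives, 4 of which called it. No paired analysis was possible because the deposited means carry no replicate numbers. With 2 libraries per group and a median count of 23.8, depth limits what single members can show.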
